A study of Homo sapiens with 12 samples.

Results

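A set of 10 inflammatory genes was followed across a human osteosarcoma line in which a nuclear co-repressor had been knocked down and the DNA had been damaged. They were the CXC chemokines CXCL8 (interleukin-8), CXCL1, CXCL2 and CXCL3, the CC chemokine CCL2, the cytokines IL1A, IL1B, IL6 and LIF, and SOD2, the mitochondrial manganese superoxide dismutase. Every probe that the probe annotation assigned to one of these 10 gene symbols was taken, which gave 13 of the 48803 probes on each array and 10 of 18665 named genes. CXCL8 had 2 probes, SOD2 had 3 and each of the other 8 genes had 1.

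Chemokines are small secreted proteins that attract leukocytes: CXC chemokines with the ELR motif, such as CXCL8 and CXCL1, draw neutrophils, and CCL2 draws monocytes. IL1A and IL1B signal through the same receptor to the transcription factor NF-kB, while IL6 and LIF signal through receptors that share the gp130 subunit. SOD2 is no cytokine but is a well-known NF-kB-responsive gene and converts superoxide to hydrogen peroxide in mitochondria. NCoR and SMRT are related co-repressors that hold histone deacetylase 3 at promoters, and genes controlled by NF-kB and AP-1 are among those they are known to occupy.

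The cells were U2OS, an osteosarcoma line with functional p53. They received a scramble siRNA (siCtl) or a mix of 3 siRNAs against NCoR (siNCoR) or SMRT (siSMRT), and 2 days later either 100 µM cisplatin (CDDP), a platinum compound that cross-links DNA, or vehicle, for 6 h. The labels call the vehicle arrays untreated. The 6 groups held 2 biological replicates each, 12 one-colour bead arrays in all, all from a single cell line, and each group was a mixed transfected population rather than a clone. The depletion of NCoR and SMRT was not analysed here, so each siRNA group is named by its label.

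A signal below is the quantile-normalized probe intensity in arbitrary units, with no background subtracted, and it cannot be compared between probes. A signal of 100 served as the floor: a probe entered the tests where both arrays of at least 1 group were above it. Fold changes are differences of log2 signals after background correction, with their standard errors (SE) from limma fitted to all 12 arrays, and p-values were adjusted by the Benjamini-Hochberg method over the 14801 probes tested. A probe was called at an adjusted p under 0.05. Replicate arrays correlated at 0.9962 to 0.9969 over all probes, and with 2 arrays a group the number of arrays limits the precision.

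Of the 13 probes, 6 passed the floor: both probes of CXCL8, the single probes of CCL2 and IL1A, and 2 probes of SOD2. The other 7 (CXCL1, CXCL2, CXCL3, IL1B, IL6, LIF and the third SOD2 probe) did not, and 6 of these were under the floor on every array. IL1A passed only through its CDDP arrays, so that its higher level with CDDP is in part a condition of its being tested.

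The upstream sequences of 8 of the 10 genes were matched in RefSeq (assembly GRCh38.p14), and CCL2 and LIF were without an entry in the table used. The 250 bases before the annotated start were searched on both strands for an NF-kB motif (GGNNNTTCC), an AP-1 motif (TGANTCA), a cAMP response element (TGACGTCA) and a C/EBP motif (TTGCNNAA). The windows of 4 genes are printed, 5′ to 3′ on the strand of the gene and with matches in capitals, because CXCL8 and IL1A carry most of the results and CXCL1 and IL6 are the unmeasured relatives they are set beside. The windows are chr4:73740319-73740568 (plus strand) for CXCL8, chr4:73869143-73869392 (plus strand) for CXCL1, chr2:112784401-112784650 (minus strand, the second of 2 annotated starts) for IL1A and chr7:22726950-22727199 (plus strand) for IL6.
CXCL8: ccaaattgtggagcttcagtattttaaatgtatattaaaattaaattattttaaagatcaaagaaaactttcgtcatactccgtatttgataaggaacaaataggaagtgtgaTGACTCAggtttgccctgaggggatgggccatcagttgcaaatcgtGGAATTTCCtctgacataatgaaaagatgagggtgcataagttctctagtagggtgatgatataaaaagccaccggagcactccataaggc
CXCL1: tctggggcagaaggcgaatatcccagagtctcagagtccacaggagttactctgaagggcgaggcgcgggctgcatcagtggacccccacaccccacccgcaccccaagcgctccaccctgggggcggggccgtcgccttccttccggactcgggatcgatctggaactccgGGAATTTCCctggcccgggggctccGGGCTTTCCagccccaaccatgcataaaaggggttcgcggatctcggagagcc
IL1A: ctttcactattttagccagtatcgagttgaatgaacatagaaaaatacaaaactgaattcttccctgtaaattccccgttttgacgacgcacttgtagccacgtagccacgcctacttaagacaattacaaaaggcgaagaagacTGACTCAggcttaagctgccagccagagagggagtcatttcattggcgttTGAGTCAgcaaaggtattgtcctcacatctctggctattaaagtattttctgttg
IL6: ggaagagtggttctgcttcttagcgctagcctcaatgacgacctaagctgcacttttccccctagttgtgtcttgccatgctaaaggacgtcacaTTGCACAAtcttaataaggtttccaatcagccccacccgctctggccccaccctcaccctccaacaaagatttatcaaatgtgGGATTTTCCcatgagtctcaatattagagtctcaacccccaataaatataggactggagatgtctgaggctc

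The CXCL8 window held an NF-kB match 91 to 83 bases before the start and an AP-1 match 137 to 131 bases before it. CXCL1, CXCL2 and CXCL3 each held 2 NF-kB matches, of which the one nearer the start lay 53 to 45 bases before it in all 3, and IL6 held 1 NF-kB match (72 to 64) with a C/EBP match (155 to 148). IL1A held AP-1 matches only, at 105 to 99 and 55 to 49 bases before the start shown. A C/EBP match was the only one in IL1B, and none of the 4 SOD2 starts had a match. The NF-kB letters occurred in 17.1% of all 35116 windows of this length, the AP-1 letters in 6.57%, the C/EBP letters in 9.05% and the cAMP element in 1.65%. A match is a description of the letters only, and no binding was measured.

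In siCtl cells, 5 of the 6 tested probes were higher with CDDP (16.7% of all probes were called higher), and in siNCoR cells all 6 were (18.9%). In siSMRT cells the only call was IL1A (20.4%). IL1A, called with CDDP under all 3 siRNAs, passed the floor through its CDDP arrays only, which in part fixed these calls. Without CDDP, siSMRT against siCtl gave 6 of 6 calls, all higher (6.62%), although IL1A was under the floor in both of those groups, and with CDDP it gave 4 (7.43%). siNCoR against siCtl gave 1 call with vehicle (2.51%) and 1 with CDDP (2.8%), IL1A both times, which with vehicle was under the floor in both groups. No member was called lower in these comparisons, in which 17.6%, 19.1% and 19.6% (CDDP in siCtl, siNCoR and siSMRT cells), 1.97% and 2.61% (siNCoR with vehicle and with CDDP) and 7.85% and 8.45% (siSMRT) of all probes were. Both arrays of the first group lay above both of the second for all 6 probes with CDDP in siCtl (36.8% of all probes), siNCoR (37.6%) and siSMRT cells (40%) and under siSMRT with vehicle (29.8%) and CDDP (30.7%), but for 1 probe under siNCoR with vehicle (23.9%) and 2 with CDDP (23.5%). The median log2 difference over the 6 probes was 0.81, 0.94 and 0.38 for CDDP in siCtl, siNCoR and siSMRT cells, against 0.04, 0.04 and 0.05 over all probes tested. For siSMRT against siCtl it was 0.89 with vehicle and 0.70 with CDDP, against 0.01 over all probes in both, and for siNCoR it was -0.04 and 0.07. The 6 probes come from 4 genes, so CXCL8 and SOD2 enter these counts and medians with 2 probes each, which are not separate results. These comparisons share arrays: every siRNA comparison uses the siCtl arrays, and each CDDP comparison shares its vehicle arrays with an siRNA comparison. Centring each array on its median in place of quantile normalization left 3 of the 5 calls in siCtl cells, 3 of the 6 in siNCoR cells and gave 3 in siSMRT cells.

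**Figure D1:**
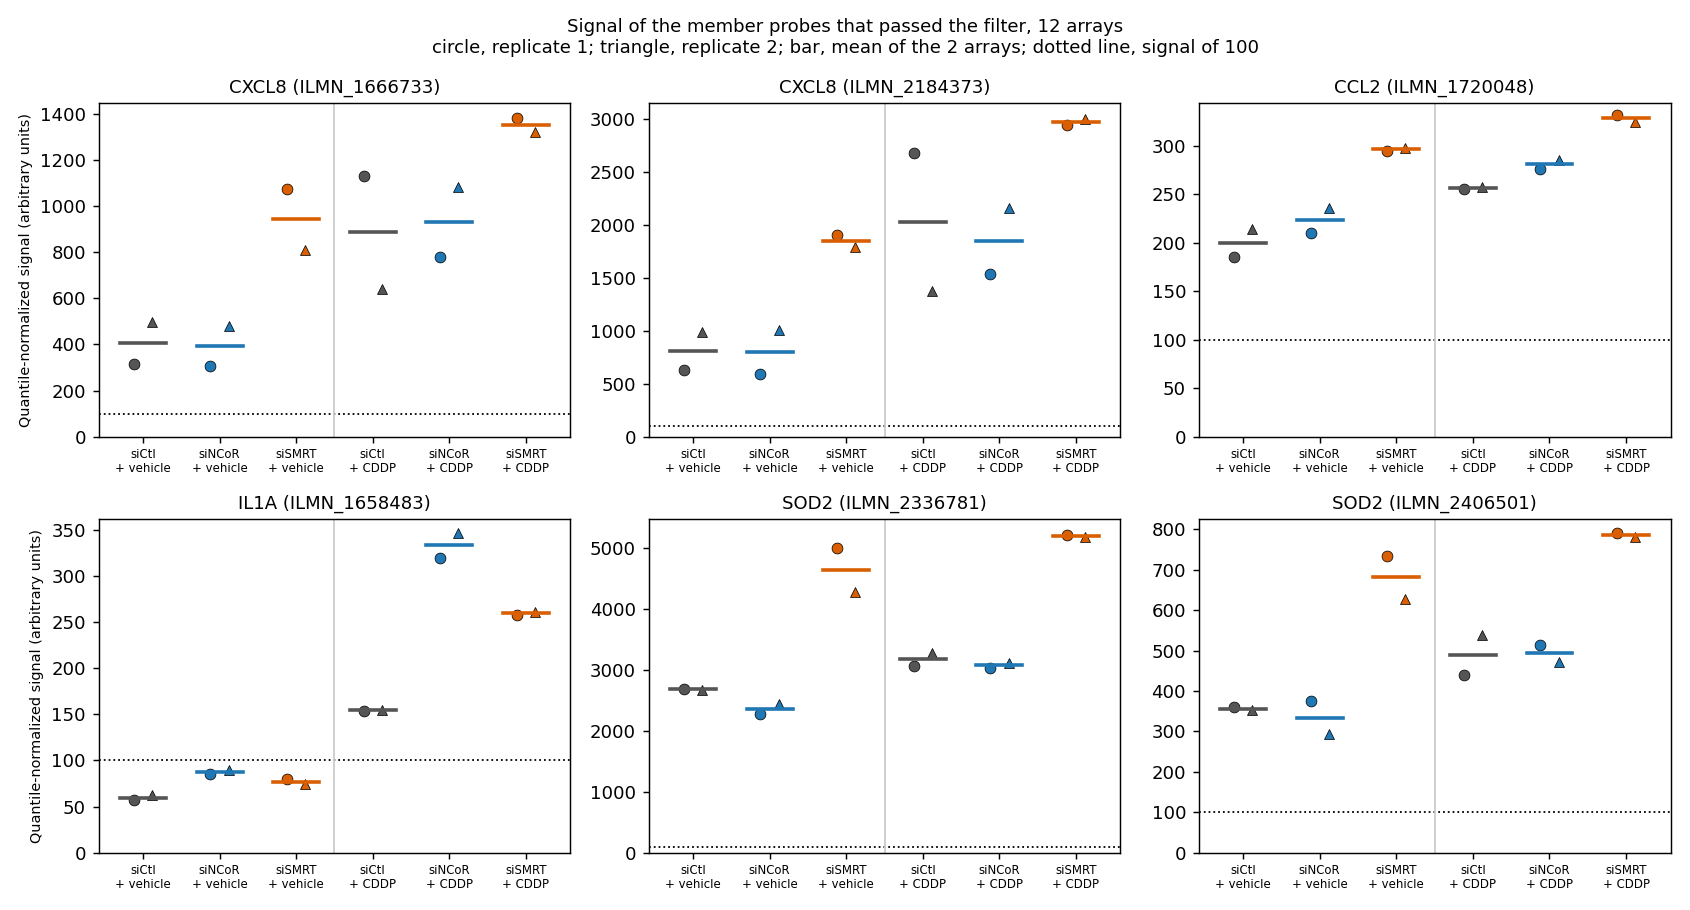
Quantile-normalized signal (arbitrary units, linear axis from 0) of the 6 member probes past the floor, by siRNA and treatment, with a point for each of the 12 arrays and a bar for the mean of 2. The siSMRT arrays (orange) stand highest for CXCL8, CCL2 and SOD2 within vehicle and within CDDP, whereas IL1A is highest in siNCoR cells with CDDP (320 and 347).

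CXCL8, the neutrophil attractant, was read by both of its probes alike (Pearson correlation 0.9914 over the 12 arrays, a description of arrays that share 6 groups). With vehicle, the probe ILMN_1666733 gave 317 and 498 in siCtl cells, 305 and 479 in siNCoR cells and 1074 and 811 in siSMRT cells. With CDDP it gave 1130 and 641 in siCtl cells, 781 and 1081 in siNCoR cells and 1381 and 1323 in siSMRT cells. The siSMRT cells with vehicle thus lay in the range of the CDDP-treated siCtl and siNCoR cells, and the siCtl and siNCoR vehicle arrays were below all others. Probe ILMN_2184373 ran from 594 and 1005 (siNCoR, vehicle) to 2945 and 3005 (siSMRT, CDDP).

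The replicates of CXCL8 were far apart. In siCtl cells CDDP raised it by 1.15 (SE 0.306, limma adjusted p = 0.0124) and 1.31 (SE 0.319, adjusted p = 0.00751) on the log2 scale for the 2 probes, but the rise was 1.92 within the arrays numbered 1 and 0.38 within those numbered 2 for the first probe, and 2.14 and 0.49 for the second. Both calls were lost without siCtl vehicle replicate 1 (0.80 and 0.98, limma adjusted p = 0.118 and 0.0765) and without siCtl CDDP replicate 1 (0.73 and 0.82, adjusted p = 0.128 and 0.0841). In siNCoR cells the rise was 1.32 (adjusted p = 0.0054) and 1.27 (adjusted p = 0.00855) in the limma fit, and it too missed the threshold without siNCoR vehicle replicate 1 (adjusted p = 0.0601 and 0.0915) or siNCoR CDDP replicate 2 (adjusted p = 0.0529 and 0.0757).

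In siSMRT cells the values of CXCL8 with and without CDDP differed by 0.55 (95% confidence interval -0.12 to 1.21, limma adjusted p = 0.173) and 0.70 (0.00 to 1.39, adjusted p = 0.101), which did not pass. A fit restricted to the 4 siSMRT arrays, in which the spread of these arrays alone sets the error, did pass for both probes (limma adjusted p = 0.0176 and 0.00134). Centring on array medians also passed the second probe (0.86, adjusted p = 0.0225).

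With vehicle, siSMRT cells had a CXCL8 level 1.28 (SE 0.306, limma adjusted p = 0.0167) and 1.26 log2 units (SE 0.319, adjusted p = 0.0223) above siCtl, that is 2.44-fold and 2.39-fold. Both calls were lost without siCtl vehicle replicate 1 (0.94 and 0.92, adjusted p = 0.146 and 0.175 in limma) and without siSMRT vehicle replicate 1 (1.08 and 1.21, adjusted p = 0.123 and 0.111), and the second probe also without siSMRT vehicle replicate 2 (adjusted p = 0.0829). With CDDP the differences of 0.68 and 0.64 did not pass (adjusted p = 0.149 and 0.193). For siNCoR the differences from siCtl lay between -0.07 and 0.11, with 95% confidence intervals that reached from -0.77 to 0.78.

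CCL2, the monocyte attractant, showed a similar order at smaller size. Its signals with vehicle were 186 and 214 in siCtl, 210 and 236 in siNCoR and 294 and 298 in siSMRT cells. With CDDP they were 256 and 257 in siCtl, 276 and 285 in siNCoR and 332 and 325 in siSMRT cells. The siSMRT vehicle arrays lay above all CDDP arrays of the other siRNAs, and no group overlapped another apart from siCtl and siNCoR with vehicle. How many of all probes have such an order was not counted.

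CDDP raised CCL2 by 0.40 in siCtl cells (SE 0.103, limma adjusted p = 0.00999) and by 0.37 in siNCoR cells (adjusted p = 0.0154), and its value was 0.16 higher in siSMRT cells, which did not pass (95% confidence interval -0.06 to 0.39, adjusted p = 0.234). Centring on array medians ended the first 2 calls (0.21 and 0.12, adjusted p = 0.324 and 0.588), as did leaving out siCtl vehicle replicate 1 for siCtl cells (0.29, adjusted p = 0.104) and siNCoR vehicle replicate 1 (0.28, adjusted p = 0.127) or CDDP replicate 2 (0.34, adjusted p = 0.0788) for siNCoR cells. CCL2 rose with siSMRT and vehicle by 0.63 (SE 0.103, adjusted p = 0.00277 in limma), a call that no alternative ended. With CDDP it rose by 0.39 (adjusted p = 0.0257), a call lost when any one of the 4 arrays compared was left out (adjusted p = 0.086 to 0.121) and with centring on array medians (adjusted p = 0.132).

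The remaining chemokines gave no level above the floor. Signals ran from 46.8 to 62.6 for CXCL1, from 44.4 to 52.0 for CXCL2 and from 50.2 to 64.7 for CXCL3, all 3 neutrophil attractants that sit beside CXCL8 on chromosome 4. Their ranks on the arrays were the percentiles 10.9 to 58.7, 4.18 to 33.1 and 25.1 to 60.8. At such signals an expressed transcript and background cannot be told apart.

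IL1A, the interleukin-1 form that is active as a precursor and acts as an alarm signal, had groups that did not overlap. Its vehicle arrays were all under the floor, at 57.4 and 62.2 in siCtl, 84.8 and 89.9 in siNCoR and 80.0 and 73.9 in siSMRT cells. Its CDDP arrays were all above it, at 154 and 155 in siCtl, 320 and 347 in siNCoR and 257 and 261 in siSMRT cells. All 6 groups were apart, and the share of all probes for which this holds was not counted. The lowest CDDP array was above the highest vehicle array, as for 4.39% of all 48803 probes. That share includes probes that did not pass the floor, and the share among the 14801 probes tested was not counted.

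Because the vehicle arrays give only an upper limit, the change is given as a bound, the mean of the CDDP arrays against the lowest normalized signal among probes above the floor. IL1A was at least 1.7-fold higher with CDDP in siCtl cells (limma adjusted p = 6.395e-07), at least 4-fold in siNCoR cells (adjusted p = 1.362e-07) and at least 3.05-fold in siSMRT cells (adjusted p = 2.435e-07). Since IL1A passed the floor through its CDDP arrays only, these rises were in part a condition of its being tested. These 3 calls held under every alternative and with any single array left out. Among CDDP-treated cells, where all arrays measured it, IL1A was 1.24 log2 units (2.36-fold, SE 0.103, limma adjusted p = 5.06e-05) higher in siNCoR than in siCtl cells and 0.85 (1.80-fold, adjusted p = 0.000663) higher in siSMRT cells. Between vehicle groups the test passed as well (adjusted p = 0.00161 for siNCoR and 0.00542 for siSMRT against siCtl), but both groups were under the floor and no fold is given. Without siCtl vehicle replicate 1 or siSMRT vehicle replicate 1 the siSMRT vehicle comparison did not pass (adjusted p = 0.0627 and 0.0557).

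Of the dim cytokines, IL6 and IL1B were higher on every CDDP array than on any vehicle array, as were 4.39% of all 48803 probes. IL6, the gp130 ligand of the acute-phase response, gave 58.4 to 73.6 on the 6 vehicle arrays and 84.8 to 92.9 on the 6 CDDP arrays, without overlap. IL1B, the secreted interleukin-1 that needs cleavage by caspase-1, gave 43.1 to 51.5 and 51.9 to 60.1. The nearest IL1B arrays of the 2 treatments thus nearly touched. Both stayed under 100 throughout, where a transcript cannot be told from background, so no fold is given. When the floor was dropped, IL6 passed for CDDP in siCtl, siNCoR and siSMRT cells (limma adjusted p = 0.00506, 0.0338 and 0.00137), and IL1B in siNCoR cells alone (adjusted p = 0.0101). The same fit called CXCL3 lower with CDDP in siNCoR cells (limma adjusted p = 0.049) and LIF lower in siSMRT cells (adjusted p = 0.0392).

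LIF, a gp130 ligand named for its action on leukaemia cells, was not higher with CDDP. It gave 82.7 to 117 on vehicle arrays and 69.5 to 94.9 on CDDP arrays, which overlap, and only siSMRT vehicle replicate 2 was above 100. With a floor in 1 array, LIF was called lower with CDDP in siSMRT cells (limma adjusted p = 0.0209). It was not called in siCtl or siNCoR cells. LIF entered that fit only through siSMRT vehicle replicate 2, so this call was in part a condition of its being tested. The difference in response of siSMRT minus siCtl did not pass there (-0.46, limma adjusted p = 0.673).

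**Figure D2:**
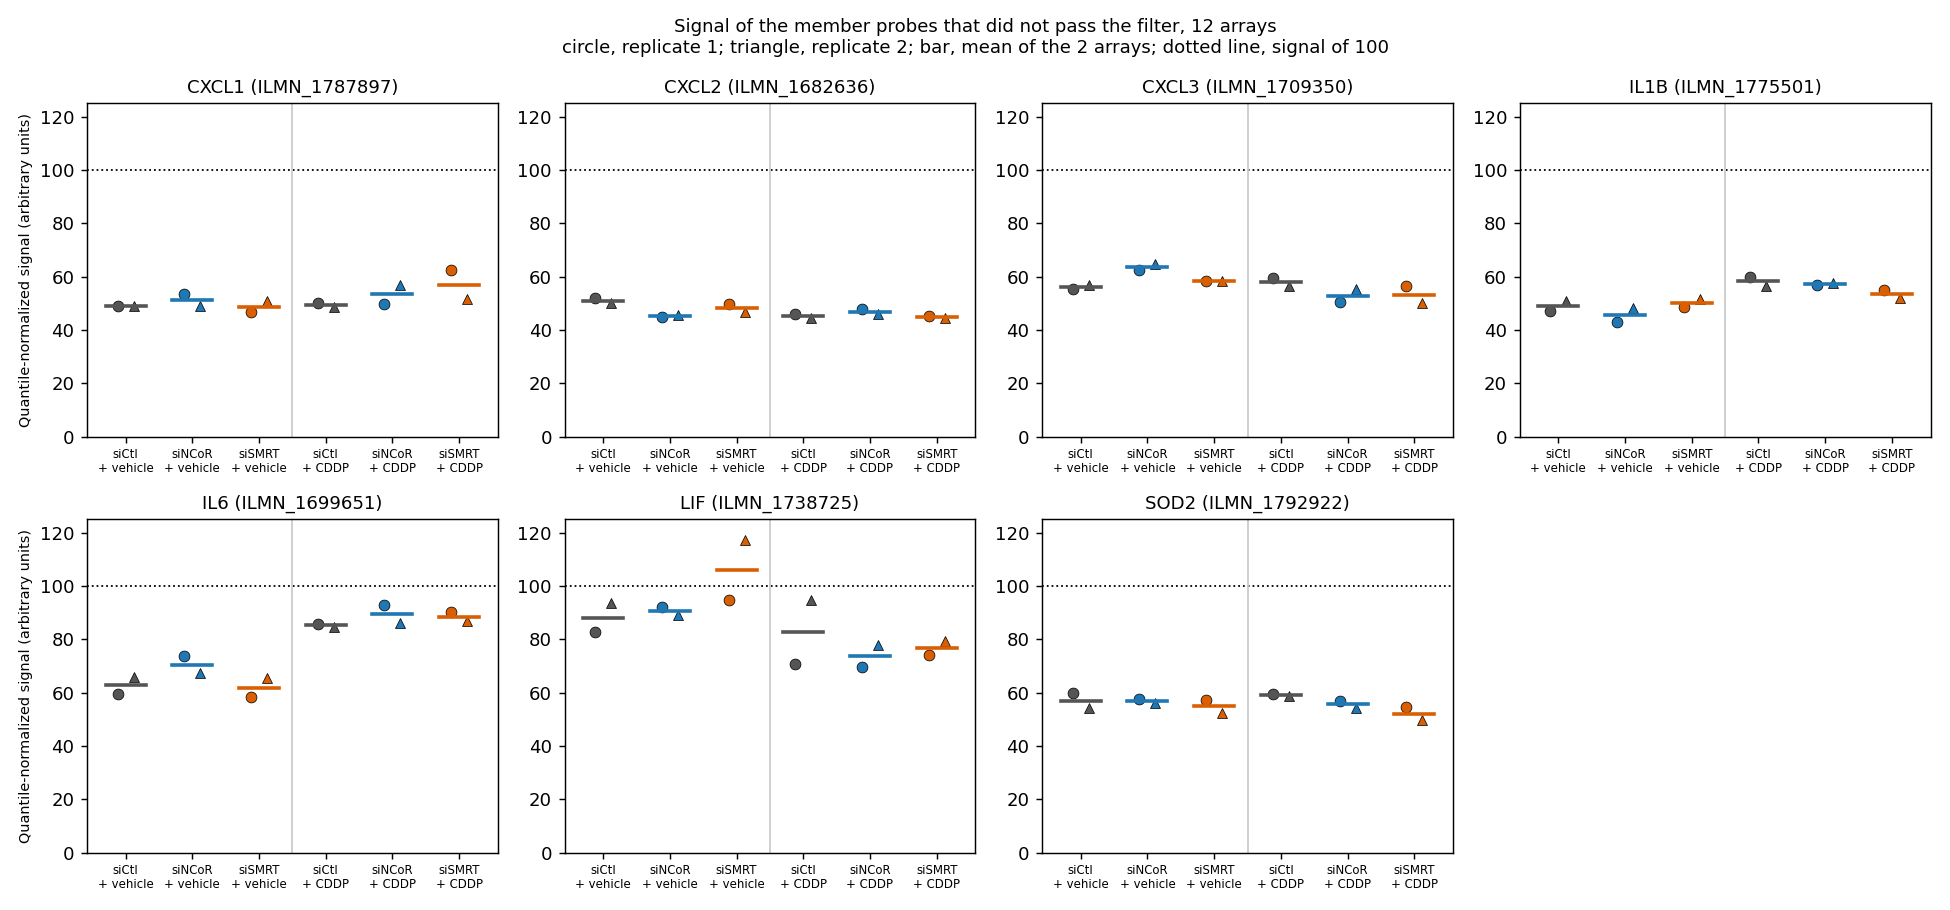
Quantile-normalized signal (arbitrary units, linear axis from 0) of the 7 member probes that did not pass the floor of 100 (dotted line), with a point per array and a bar for the mean of 2. IL6 and IL1B are higher on every CDDP array than on every vehicle array while staying under the line, and LIF crosses it on 1 array (117).

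SOD2 was highest in siSMRT cells with either treatment. The brighter probe, ILMN_2336781, gave 2684 and 2679 in siCtl, 2274 and 2442 in siNCoR and 5009 and 4290 in siSMRT cells with vehicle. With CDDP it gave 3069 and 3279 in siCtl, 3040 and 3124 in siNCoR and 5222 and 5187 in siSMRT cells. All 4 siSMRT arrays were above all 8 others, an order whose share among all probes was not counted. The second probe, ILMN_2406501, ran from 293 and 375 (siNCoR, vehicle) to 791 and 782 (siSMRT, CDDP), again with the 4 siSMRT arrays on top, and the third, ILMN_1792922, stayed at 49.9 to 59.7.

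SOD2 rose with siSMRT and vehicle by 0.79 (1.73-fold, SE 0.0994, limma adjusted p = 0.000641) and 0.98 (1.97-fold, SE 0.141, adjusted p = 0.0014) on the log2 scale for the 2 probes. With CDDP the rise was 0.72 for both probes (adjusted p = 0.00127 and 0.00638). The vehicle calls held under every alternative and with each array left out, whereas the CDDP call of ILMN_2406501 did not pass without siCtl CDDP replicate 1 (0.56, adjusted p = 0.0608). siNCoR gave differences of -0.19 to 0.02, none of which passed (95% confidence intervals from -0.42 to 0.33).

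With CDDP the changes of SOD2 were small. In siCtl cells the difference was 0.24 (limma adjusted p = 0.077) for the bright probe and 0.47 (adjusted p = 0.0215) for the other, so the probes fell on different sides of the threshold. In siNCoR cells both rose, by 0.39 (adjusted p = 0.00911) and 0.61 (adjusted p = 0.00552), and in siSMRT cells the differences of 0.17 and 0.22 did not pass (adjusted p = 0.198 and 0.237). Centring on array medians passed the bright probe in siSMRT cells (0.44, adjusted p = 0.0352) and ended the calls in siCtl (0.32, adjusted p = 0.191) and siNCoR cells (0.34 and 0.40, adjusted p = 0.104 and 0.0842). The siCtl call was also lost without siCtl vehicle replicate 1 or 2 or CDDP replicate 2 (adjusted p = 0.0707, 0.0868 and 0.177), and in siNCoR cells without siNCoR vehicle replicate 1 or CDDP replicate 2 for the bright probe (adjusted p = 0.0708 and 0.0542) and vehicle replicate 2 for the other (adjusted p = 0.0629).

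**Figure D3:**
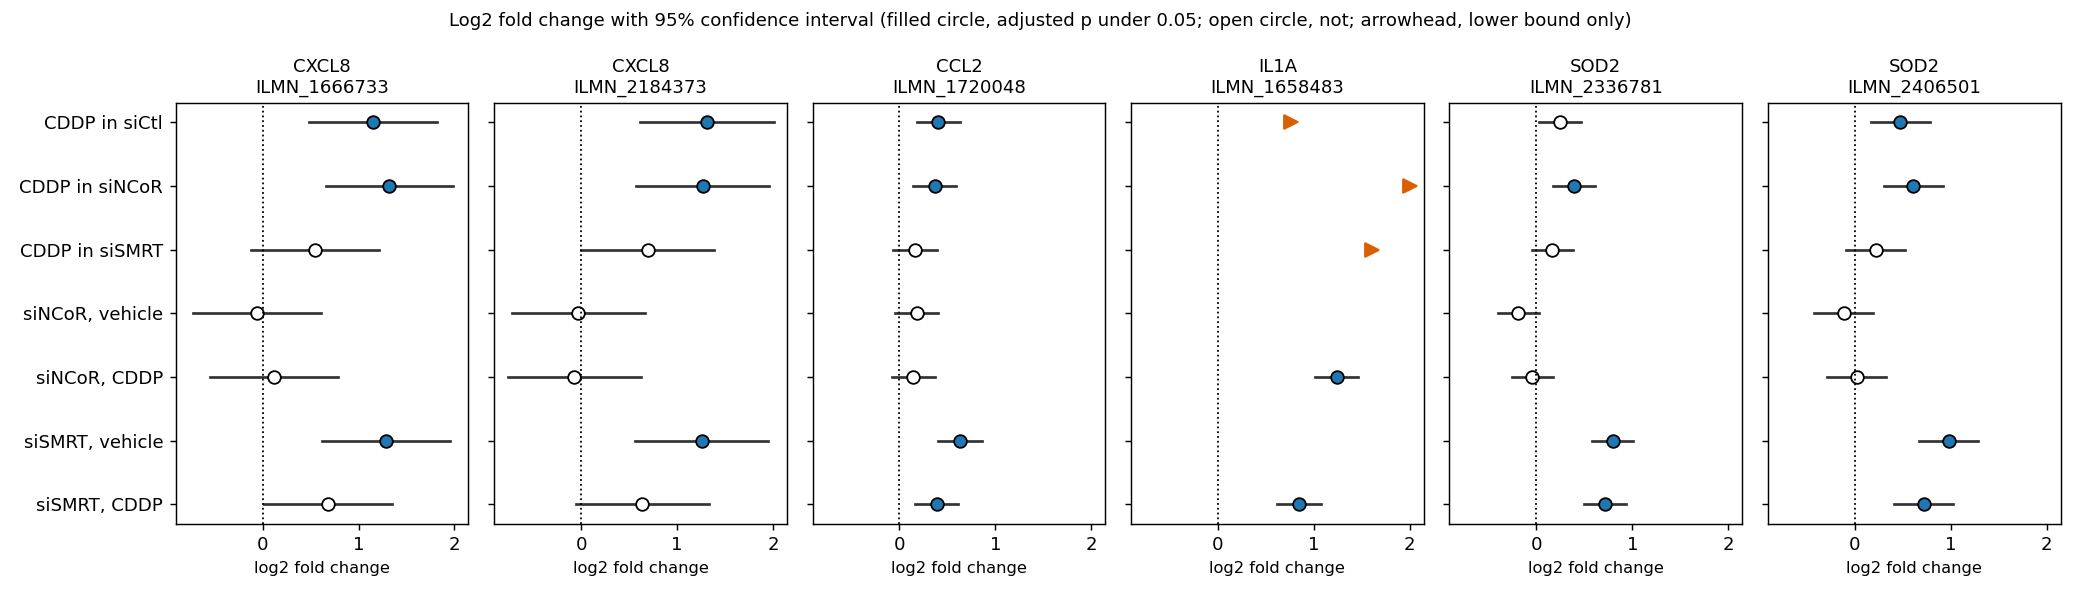
Log2 fold change (horizontal axis) of each member probe past the floor in 7 comparisons, with the 95% confidence interval from limma; filled circles passed an adjusted p of 0.05, and arrowheads mark lower bounds for IL1A, whose 2 vehicle comparisons are left blank. CXCL8 has the widest intervals. For each SOD2 probe, the comparison furthest from 0 is siSMRT with vehicle (0.79 and 0.98).

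Whether the CDDP response differed between the siRNAs was tested on the difference itself, a difference of 4 group means. The values are for siSMRT minus siCtl except where siNCoR is named. For CXCL8 it was -0.60 (95% confidence interval -1.54 to 0.34, limma adjusted p = 0.726) and -0.62 (-1.60 to 0.37, adjusted p = 0.731), and the same-numbered arrays gave opposite signs (-1.55 and 0.34 for the first probe). For CCL2 it was -0.24 (-0.56 to 0.08, adjusted p = 0.667), and for the SOD2 probes it was -0.08 (-0.38 to 0.23) and -0.26 (-0.69 to 0.18). For IL1A it was 0.30 in siSMRT (-0.02 to 0.62, adjusted p = 0.614) and 0.44 in siNCoR cells (0.12 to 0.76, adjusted p = 0.991), in part from vehicle values under the floor. For siNCoR minus siCtl the difference was 0.17 and -0.04 for CXCL8, -0.04 for CCL2 and 0.15 and 0.13 for SOD2. For siSMRT minus siNCoR all 6 values were negative, from -0.14 (IL1A) to -0.77 (CXCL8). None passed in the limma fit, and neither did any of the 14801 probes. At an unadjusted p under 0.05 in limma there were 653 probes for siNCoR against siCtl (4.41% of those tested). There were 1245 for siSMRT against siCtl (8.41%) and 502 for siSMRT against siNCoR (3.39%). Of the 6 member probes, 1, 0 and 0 were among them, so these counts over all probes are not a result about the members. The passing of a test in siCtl but not in siSMRT cells therefore does not show that the responses differ, and the intervals for CXCL8 also include a difference of 0.

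The siRNA groups were set against each other directly in 2 comparisons that were added after the data had been seen. With vehicle, siSMRT cells were above siNCoR cells for 5 of the 6 probes (7.78% of all probes were called higher, 9.51% lower): CXCL8 by 1.34 and 1.29, CCL2 by 0.45, and SOD2 by 0.98 and 1.09 (limma adjusted p = 9.461e-05 for the bright SOD2 probe). Both siSMRT arrays were above both siNCoR arrays for 5 probes with vehicle (31.7% of all probes) and 5 with CDDP (29.1%). With CDDP only the 2 SOD2 probes were called higher (7.24%), by 0.76 and 0.70. IL1A was called lower in siSMRT than in siNCoR cells (8.02% of probes), by -0.39 (SE 0.103, limma adjusted p = 0.0235), a call that was lost with any of the 4 arrays left out (adjusted p = 0.0502 to 0.122) and with centring on array medians (adjusted p = 0.133). Leaving out siNCoR vehicle replicate 1 or siSMRT vehicle replicate 1 left 2 of the 5 vehicle calls, and leaving out siSMRT vehicle replicate 2 left 3.

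Companion genes of the same pathways were counted per gene, each from its brightest probe, in lists picked with earlier results of these arrays known. Beside these counts, 16.7% of all probes tested were called higher and 17.6% lower with CDDP in siCtl cells, 6.62% and 7.85% with siSMRT and vehicle, 7.43% and 8.45% with siSMRT and CDDP, 2.51% and 1.97% with siNCoR and vehicle, and 2.8% and 2.61% with siNCoR and CDDP. Of 23 other chemokines on the array, 5 passed the floor, and in siCtl cells only CXCL16, a membrane-anchored chemokine, rose with CDDP (0.35, limma adjusted p = 0.0183). The eosinophil attractant CCL26 was the only other chemokine that rose with siSMRT, by 0.58 with vehicle (adjusted p = 0.0108) and 0.84 with CDDP (adjusted p = 0.00169). Of 9 other cytokines past the floor, 4 rose and none fell with CDDP in siCtl cells (16.7% of all probes higher), and none was called under either siRNA, a count of 0 in 9 genes to be read against the shares of all probes given above. IL11, another gp130 ligand, rose by 1.87 in siCtl (SE 0.2, limma adjusted p = 2.728e-05), 2.21 in siNCoR and 2.02 in siSMRT cells, and TNFSF9, a ligand of the TNF family, by 1.16, 1.14 and 1.12. The other 2 calls, IL12A (signals from 72.4 to 373) and IL17D, a member of the interleukin-17 family (86.0 to 130), came from genes that passed the floor through their CDDP groups only, so that a rise with CDDP was in part a condition of their being tested.

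Among receptors and antagonists, 4 of 8 rose with CDDP in siCtl cells and 1 fell (16.7% and 17.6% of all probes). The gp130-partner receptor LIFR was higher by 0.36 (limma adjusted p = 0.0422), the interleukin-18 decoy IL18BP passed with signals of 89.3 to 176, and TNFRSF1A, the main TNF receptor, fell by 0.42. ACKR3, an atypical chemokine receptor, fell by 1.32 with siSMRT and vehicle (SE 0.266, limma adjusted p = 0.00748). With CDDP it rose by 0.88 in siSMRT cells (adjusted p = 0.021). Its differences of 0.28 in siCtl and 0.32 in siNCoR cells did not pass (adjusted p = 0.453 and 0.375). The difference in response of siSMRT minus siCtl did not pass either (0.60, adjusted p = 0.678). The receptor gene IL18R1 (signals 91.4 to 165) rose by 0.51 with CDDP in siCtl cells. It was also called higher with siSMRT and vehicle (0.44), siSMRT and CDDP (0.46) and siNCoR and vehicle (0.51). IL6ST, the gp130 gene, was called lower with siSMRT and CDDP (-0.45), and TNFRSF1A with siNCoR and CDDP (-0.40).

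Of 15 genes of interleukin-1 and NF-kB signalling, 1 rose and 2 fell with CDDP in siCtl cells: the adaptor MYD88 rose by 0.82 (limma adjusted p = 0.000252), the kinase gene IRAK2 fell by 1.02 and the NF-kB subunit gene NFKB1 fell by 0.68. In siSMRT cells NFKB1 fell by 1.36. Of 14 genes of NF-kB feedback and other NF-kB targets, 9 rose and 1 fell (16.7% and 17.6% of all probes), with a median of 0.47 against 0.04 over all probes. PTGS2, the inducible cyclooxygenase, rose by 2.16, 2.52 and 2.67 in siCtl, siNCoR and siSMRT cells (limma adjusted p = 3.602e-06 in siCtl cells), NFKBIZ, an IkB-like nuclear cofactor, by 1.58, 2.05 and 1.74, and TNFAIP3, the deubiquitinating feedback inhibitor, by 0.89, 0.79 and 0.47. With siSMRT and vehicle only 1 of these 14 genes was called, the matrix protease MMP3 at 0.96 (6.62% of all probes were called higher, near the share in the list), and the median over the list was 0.18.

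Of 10 genes of gp130 and JAK-STAT signalling, 2 rose and 2 fell with CDDP in siCtl cells. STAT3, the main effector of gp130, fell by 0.74 with siNCoR and vehicle and by 0.69 with siNCoR and CDDP. Of 10 genes that set the decay of cytokine mRNAs, 2 rose and 3 fell, with ZC3H12A (Regnase-1, an endonuclease that degrades IL6 mRNA) up by 0.90 and the deadenylase gene PARN down by 1.13. With siSMRT and vehicle 3 of these 10 fell and none rose, including ELAVL1 (HuR, an AU-rich element binding protein), whose signal was 91.4 to 137. Of 8 genes of interleukin-1 processing and release, 4 rose and none fell with CDDP (16.7% and 17.6% of all probes), with CASP1, which cleaves IL1B, and S100A13, a carrier of IL1A, both at 0.58. NLRP1 was the only gene of this list called against siCtl under either siRNA. It was lower with siSMRT and vehicle (-0.47, limma adjusted p = 0.02005), as 7.85% of all probes were. Of 9 genes of mitochondrial and peroxide defence, the class to which SOD2 belongs, 1 rose (GLRX2, 0.62) and 1 fell (TXNRD1), and with siSMRT only the mitochondrial peroxiredoxin PRDX3 was called, falling by 0.41 with vehicle and 0.62 with CDDP.

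**Figure D4:**
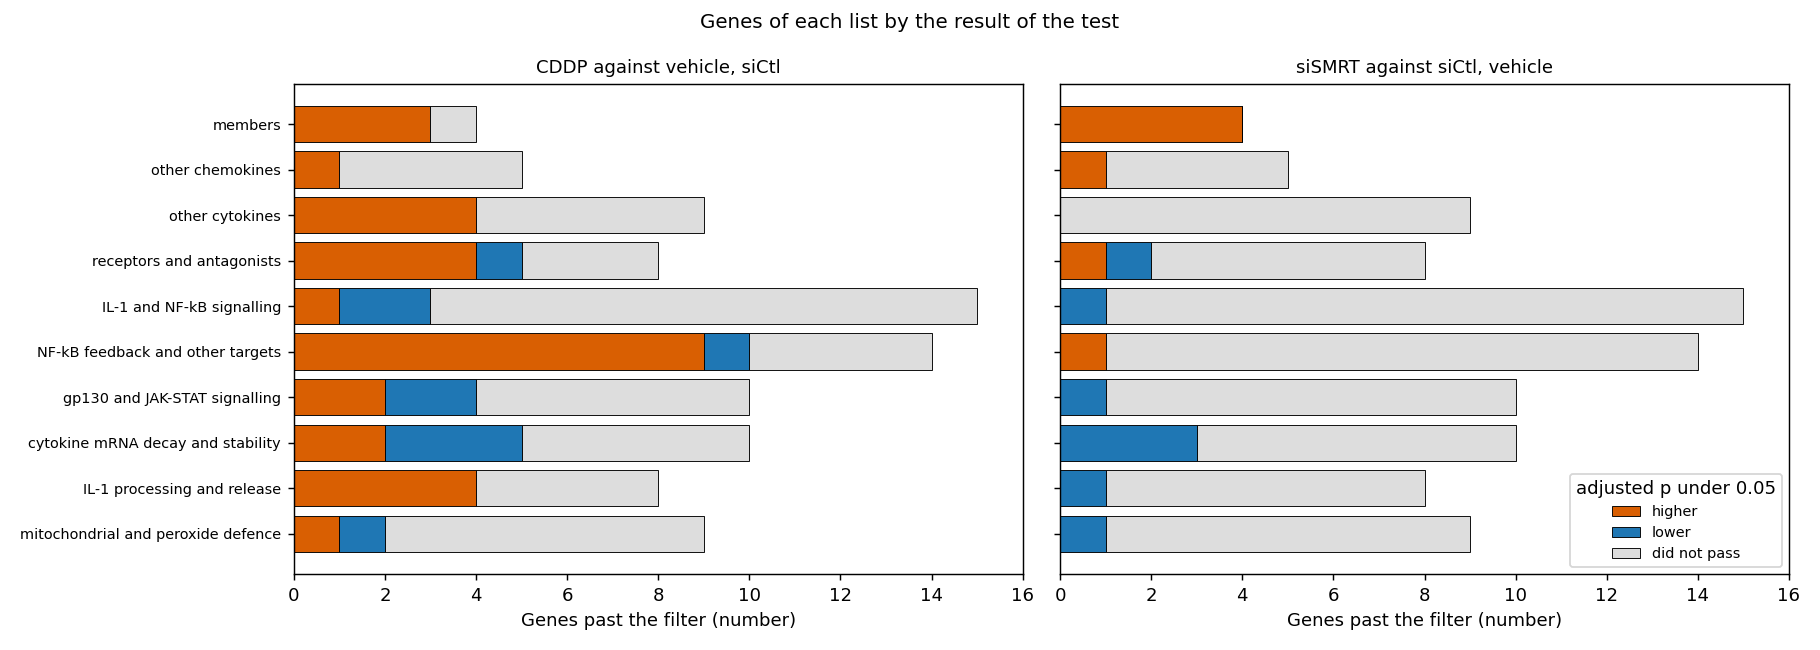
Number of genes past the floor in each list (bars, horizontal axis) that were higher, lower or did not pass at an adjusted p of 0.05, for CDDP in siCtl cells (left) and for siSMRT with vehicle (right). The NF-kB feedback and target list has 9 of 14 genes higher on the left and 1 on the right; all 4 member genes past the floor are higher on the right, IL1A with both groups under the floor, and each gene is read from its brightest probe, for SOD2 the one that did not pass on the left.

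The probes whose profile over the 12 arrays was most like each member were found by Pearson correlation, as a description of arrays that share 6 groups. CDC42EP1 was nearest to both CXCL8 probes (0.9404 and 0.948). For CCL2 it was NIPAL4 (0.9703), for IL1A it was ZFAND2A (0.979), and for the SOD2 probes NAPG (0.9818) and TLE3 (0.9706). Among the members, CXCL8 and CCL2 were alike (0.9178 and 0.9036 for the 2 CXCL8 probes), while IL1A and the bright SOD2 probe were least so (0.3362).

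Markers of cell types were read as a check. Of 7 osteosarcoma and mesenchymal markers on the array, 5 passed the floor and their calls went both ways. SPARC, a bone matrix protein, rose with CDDP in siCtl cells (0.54, limma adjusted p = 0.00175) and fell by 0.64 with siSMRT and vehicle (adjusted p = 0.00251) and by 0.51 with siSMRT and CDDP. ALPL, the alkaline phosphatase of bone, rose with siSMRT and vehicle (0.48, limma adjusted p = 0.0333), and RUNX2, the osteoblast factor, was called lower with CDDP (adjusted p = 2.106e-06 in siCtl cells), being above 100 on 4 vehicle arrays and on 0 CDDP arrays, so that it passed the floor through vehicle groups only. RUNX2 was also called lower under siNCoR with vehicle (limma adjusted p = 0.0123) and with CDDP (adjusted p = 0.0499), there with both groups under the floor. The summed signal of this list was 27050 to 28110 in siCtl, 26420 to 26530 in siNCoR and 25610 to 27250 in siSMRT cells with vehicle, and 27420 to 28640, 24750 to 25200 and 26260 to 26320 with CDDP. Most of this sum came from VIM (21770 to 25380), which was not called under either siRNA. Of 4 endothelial markers 2 passed, with VWF called higher under siSMRT with CDDP (adjusted p = 0.0335, signals 76.1 to 152). Of 8 leukocyte markers only CD14 and LYZ did, at 72.9 to 138 and 87.4 to 115, and PTPRC, the pan-leukocyte marker, stayed at 46.5 to 61.5. The summed signal of the leukocyte list was 485 to 490 in siCtl cells with vehicle, 510 to 520 in siNCoR and 507 to 527 in siSMRT cells, and with CDDP it was 510 to 535, 573 to 578 and 560 to 567. CD14 was above 100 on the 6 CDDP arrays and on 0 vehicle arrays and was called higher with CDDP in siCtl cells (limma adjusted p = 0.00257), a call that the floor in part fixed, since CD14 passed it through CDDP groups only. Of 4 epithelial markers 3 passed, and their list summed to 13720 to 14550 in siCtl, 15580 to 15830 in siNCoR and 16100 to 17160 in siSMRT cells with vehicle, and to 15310 to 15400, 16150 to 17320 and 18320 to 19030 with CDDP. Most of this sum came from KRT18 (11680 to 15930), which was not called under either siRNA. Its differences from siCtl, with vehicle and with CDDP, were 0.14 and 0.08 under siNCoR and 0.22 and 0.27 under siSMRT. A sum carried mostly by 1 gene does not tell whether the whole list shifted. EPCAM was called higher under siNCoR (0.65) and siSMRT (0.61) with vehicle, and also with CDDP (0.88 and 0.62). KRT8 was called higher with CDDP in siCtl (0.32), siNCoR (0.43) and siSMRT cells (0.36), and under siSMRT with CDDP (0.30). The part of these shifts in the levels of the chemokines and cytokines was not tested. In a bulk culture, more cells expressing a gene and more RNA per cell cannot be told apart.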

How the data were processed

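The starting values were those deposited per array by the authors, a linear intensity for 48803 probes on each of 12 Illumina BeadChips, exported from BeadStudio per the submitters' processing notes, with the version not given in the sources used here. These intensity values had neither background subtraction (lowest signals 30.4 to 38.9) nor scaling between arrays (medians 54 to 65.3, with 27% to 31.4% of probes above 100). A second deposited table of intensity, which the authors made with Corgon and multi-loess normalization, served as an alternative (log2 correlation with the per-array values 0.9996 to 1). Neither held detection p-values or control probes.

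Using limma 3.58.1 (R 4.3.3), arrays were background-corrected by normexp with an offset of 16, quantile normalized and log2 transformed. Probes above 100 in both arrays of at least 1 group were kept (14801). The fit had 1 coefficient per group and 6 residual degrees of freedom, with moderated variances. The p-values were adjusted by Benjamini-Hochberg over the probes kept, and the fit was tested on simulated data. The members, the companion and marker lists and the comparisons were chosen with earlier results of these data known. Named genes are all member probes, up to 4 companions per list with the smallest p for CDDP in siCtl cells, up to 4 called between siRNA groups, and the nearest probes by correlation. Symbols come from the probe table, through its gene identifiers where possible (27578 probes with 1 gene, 13 with several, 21212 with none). The genes targeted by the siRNAs are not reported here.

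Deviations from the group mean correlated between same-numbered arrays in 15 of 15 pairs of groups (0.207 to 0.407), so same-numbered arrays were read as pairs, from the data alone. The main fit, which gave the standard errors and p-values above, did not use this pairing. The replicate number as a block was an alternative. The other alternatives were no background correction, offset 50, median scaling, the authors' processed values, no floor, a floor in 1 array, only the arrays compared, 1 probe per gene and each array left out. Replicate arrays shared 0 identical values. Figures were made with matplotlib.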

Additional observations from a re-analysis of the deposited data

How the results depend on the processing

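The counts of called member probes kept within 1.5 times of their value in 235 combinations of comparison and alternative and not in 17. A count that stayed at 0 was included among those kept, as in the differences in CDDP response with each array left out. A fall from 6 to 4 was included as well. For a comparison of 2 groups, most of the arrays left out were outside it. The 235 is therefore not a measure of how firm the calls are. With median scaling the counts were 3 for CDDP in siCtl cells, 3 in siNCoR cells and 3 in siSMRT cells. With no floor the count in siCtl cells was 3, and with 1 probe per gene it was 3 there and 3 for siSMRT against siNCoR with vehicle. With only the arrays compared, 3 probes were called for CDDP in siSMRT cells. With single arrays left out, the counts ranged from 1 to 5 for CDDP in siCtl cells, from 2 to 6 in siNCoR cells, from 3 to 6 for siSMRT against siCtl with vehicle, from 2 to 4 for the same with CDDP and from 2 to 5 for siSMRT against siNCoR with vehicle. The lowest came without siCtl vehicle replicate 1 (1), siNCoR vehicle replicate 1 or CDDP replicate 2 (2 each), siCtl or siSMRT vehicle replicate 1 (3 each), siCtl CDDP replicate 1 (2) and siNCoR or siSMRT vehicle replicate 1 (2 each). Where 1 array is left out, the lone array of its group is assumed to vary like the other groups.

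When replicate numbers were fitted as a block, the pairing changed no count of member calls: 5, 6 and 1 for CDDP in siCtl, siNCoR and siSMRT cells, 6 and 4 for siSMRT, 1 and 1 for siNCoR against siCtl, and 5 and 3 for siSMRT against siNCoR.

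Median scaling moved the median of all probes to -0.109 for CDDP in siNCoR cells, -0.115 for siSMRT with vehicle, 0.131 for the difference in CDDP response of siSMRT minus siCtl and 0.171 for siSMRT minus siNCoR (0.039, 0.011, 0.008 and 0.003 with quantile normalization). It also moved the share of calls that were higher, over all probes, from 48.7% to 25.4% for CDDP in siCtl cells, from 49.8% to 19% in siNCoR cells, from 45.8% to 14.6% for siSMRT with vehicle, from 51.8% to 37.2% for siNCoR with CDDP, and for siSMRT against siNCoR from 45% to 20.5% with vehicle and from 47.5% to 60.7% with CDDP.

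Signs turned only among values that passed under neither setting. With median scaling SOD2 (ILMN_2406501) was at -0.075 for siNCoR with CDDP, and SOD2 (ILMN_2336781) at 0.20 for the difference in response of siSMRT minus siCtl (0.021 with the authors' values) and 0.093 for siSMRT minus siNCoR. With arrays left out, CXCL8 for siNCoR against siCtl ranged from -0.41 to 0.29 and from -0.42 to 0.36 with vehicle (the 2 probes), and from -0.31 to 0.54 and -0.56 to 0.42 with CDDP. SOD2 ranged from -0.30 to 0.077 with vehicle (ILMN_2406501), and from -0.090 to 0.0061 (ILMN_2336781) and -0.14 to 0.18 (ILMN_2406501) with CDDP. For the difference in response of siNCoR minus siCtl, CXCL8 ranged from -0.25 to 0.59 and -0.53 to 0.44, CCL2 from -0.15 to 0.079 and SOD2 (ILMN_2406501) from -0.056 to 0.32, and for siSMRT minus siCtl SOD2 (ILMN_2336781) ranged from -0.19 to 0.033. The cause of these changes was not tested. Signals under 100 limit what can be said of CXCL1, CXCL2, CXCL3, IL1B, IL6 and LIF.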
